A study of Mus musculus with 8 samples.

Results

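Genes that mark T cells and natural killer (NK) cells were followed in RNA of neutrophils collected from air pouches of mice after LPS injection. The set comprised 36 genes listed by name, and earlier results of these data were known when it was chosen. Counts over the set are therefore descriptions. Each gene was read by the probe set that carried its symbol alone. Where a gene had several such probe sets, the one with the highest mean over the 8 arrays was taken. This gave a value for 33 of the 36 genes, out of 22180 genes with such a probe set, and 31 of them were bright enough to enter the tests among 14002 probe sets. No probe set carried the symbol of Cd247, Lck or Tcf7 alone, so these 3 were not analysed here, and Cd4 and Klrd1 were measured but too dim to be tested.

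A T cell recognises antigen through a receptor that signals through the CD3 chains and the kinases Lck and Zap70, with CD4 or CD8 as coreceptor. NK cells lack that receptor and weigh signals from activating and inhibitory receptors instead. Both lineages kill through granules that hold perforin and granzymes and through Fas ligand, and both secrete interferon gamma. Neutrophils are myeloid cells, so these genes are not counted among their lineage markers.

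The arrays (Affymetrix Mouse Gene 2.0 ST) came from a study of the small GTPase Arf6 in neutrophils. The conditional knockout (cKO) was flox+/+Cre+/+ with 3 pools, the flox control was flox+/+Cre-/- with 3 pools, and the Cre control was flox-/-Cre+/+ with 2 pools. The cKO shared its floxed allele with one control line and its Cre with the other, and all mice had received LPS. Each pool held cells of 5 mice that were enriched by negative selection to 98% Ly6G-positive cells by flow cytometry, and 100 ng of RNA was hybridized. The design describes 3 pools for each genotype, and the third Cre control pool was not analysed here. The sources used here name neither the promoter that drives Cre nor the age of the mice. P-values measure the spread between pools and hold for these lines only as far as these pools stand for them.

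Arf6 read 6.06 to 6.49 (log2) in the cKO pools and 7.68 to 8.20 in the control pools, in the order that the titles and genotype labels give. Any 2 arrays correlated at 0.977 to 0.992 across probe sets, which are not independent. In 2 pools sex-linked transcripts stood apart. The lowest Xist level was 5.46, in flox control replicate 1, against 7.84 or more elsewhere, and the lowest Eif2s3y level was 4.08, in cKO replicate 1, against 8.66 or more. Calls of the set lost without these pools are given with and without them. So are counts and medians over all its tested genes that move by over 1.5 times. Counts of genes whose arrays do not overlap, and results for other gene lists, are given with all pools only.

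Levels are RMA log2 intensities, so a difference of 1 is a doubling of signal, and levels of different genes are not set against each other because each probe set has its own brightness. To see which genes read above the array's background, the 1383 probe sets of olfactory and vomeronasal receptor genes, which leukocytes mostly do not transcribe, served as a dim reference. Their 95th percentile lay between 5.71 and 5.89 in the 8 arrays and is called the dim band. Of the 33 genes measured, 16 lay above it in every array, 12 in some arrays and 5 in none. In single arrays 19 to 26 of the 33 lay above it. A value inside or below the band cannot be told apart from a probe set without its transcript. Of 12 neutrophil markers 11, Ly6g among them, lay above the band in all 8 arrays.

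By role, 4 of 6 cytotoxic effector genes (Gzma, Gzmb, Prf1 and Nkg7) and 3 of 6 NK receptor genes (Klrk1, Il2rb and Slamf7) were above the band in all 8 arrays. Of the T cell surface genes 6 of 11 were (Cd5, Cd6, Cd8b1, Icos, Thy1 and Il7r), of the signalling genes Lat and Txk, and of the transcription factors Tbx21. The T cell receptor complex had 0 of 3 genes above the band in all 8 arrays. The genes above it in 0 arrays were Cd2, Cd4, Cd28, Ctla4 and Klrd1.

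Between the control lines, the cytotoxic effector and NK receptor genes read higher in the Cre control than in the flox control, in all 12 genes measured. Klrd1 is among the 12 with all its values below the dim band. Slamf7 rose past the threshold in that comparison, by 3.12-fold, and was the single member of the set to pass in any of the 4 comparisons. That call was lost without either Cre control pool (adjusted p = 0.182 without replicate 1 and 0.243 without replicate 2). The cKO group mean lay between those of the control lines for all 12. The median difference between the control lines was 0.97 (log2) over the tested cytotoxic and NK genes and 0.26 over the tested T cell genes. The CD3 chains differed in sign. The genes called T cell genes here are those of the other 4 roles, Eomes among them. This split by role does not separate T cells from NK cells.

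**Figure D1:**
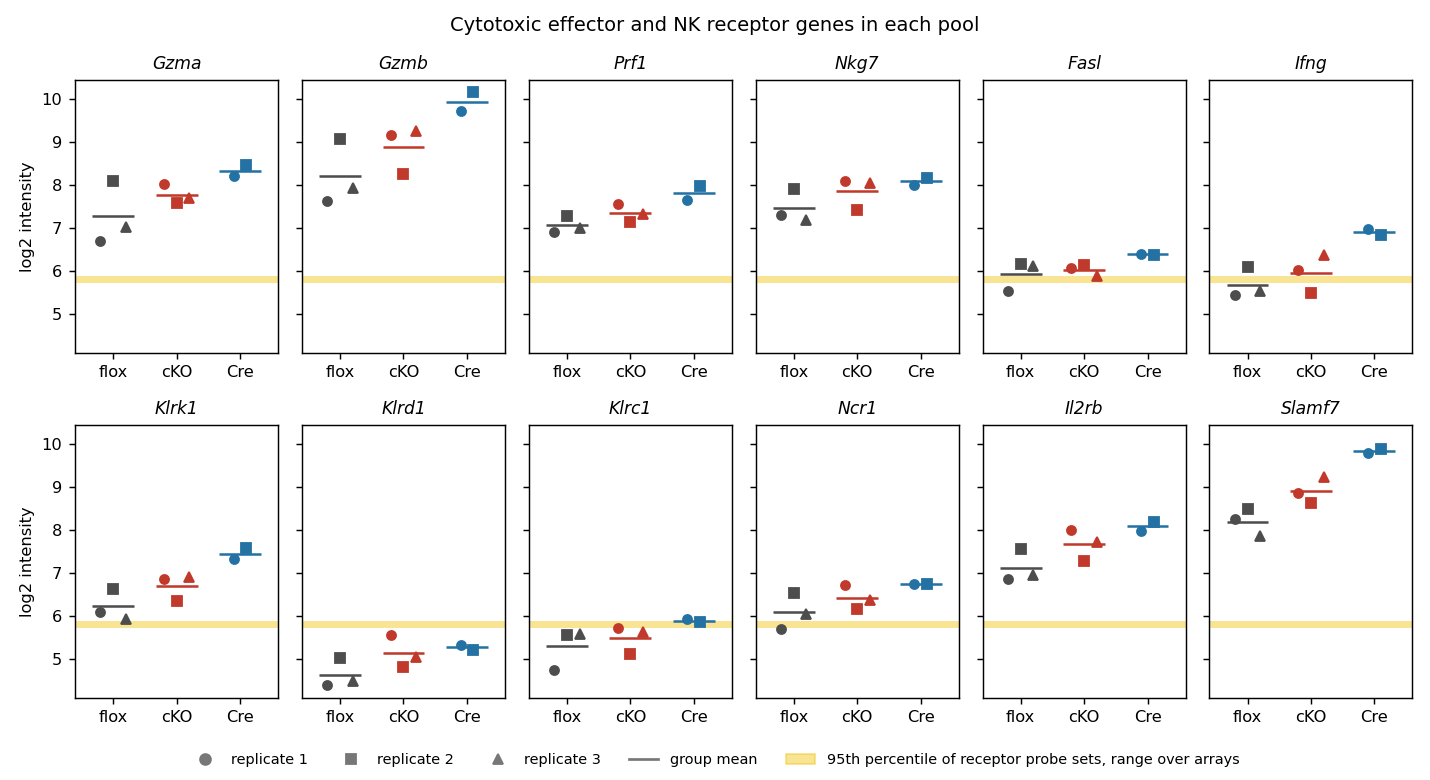
Log2 intensity (vertical axis) of the 12 cytotoxic effector and NK receptor genes in the 3 flox control, 3 cKO and 2 Cre control pools. Points are single pools with the replicate as symbol, bars are group means, and the yellow strip is the range over arrays of the 95th percentile of olfactory and vomeronasal receptor probe sets (5.71 to 5.89). Both Cre control pools lie above all 3 flox control pools for each of the 12 genes, Klrd1 with all its points below the strip.

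Promoter sequences are shown for the 6 genes with the smallest p between the control lines that had an entry among RefSeq promoters (GRCm38.p6, 250 bases before to 50 after the start). Capitals mark the T-box core GTGTGA or the RUNX core TGTGGT on either strand (TCACAC and ACCACA on the other), motifs read by T-bet, eomesodermin and RUNX factors of killer lymphocytes. Slamf7 lies at chr1:171648950-171649249 (minus strand), Il7r at chr15:9529827-9530126 (minus), Klrk1 at chr6:129623815-129624114 (minus), Ifng at chr10:118440796-118441095 (plus), Prf1 at chr10:61297586-61297885 (plus) and Gzmb at chr14:56262285-56262584 (minus).
Slamf7: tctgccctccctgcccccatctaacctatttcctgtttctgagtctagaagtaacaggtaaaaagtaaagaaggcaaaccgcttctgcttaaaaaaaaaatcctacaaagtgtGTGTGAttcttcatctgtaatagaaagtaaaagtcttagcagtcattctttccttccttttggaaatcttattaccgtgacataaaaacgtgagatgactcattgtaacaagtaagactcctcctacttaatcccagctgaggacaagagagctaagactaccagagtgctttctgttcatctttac
Il7r: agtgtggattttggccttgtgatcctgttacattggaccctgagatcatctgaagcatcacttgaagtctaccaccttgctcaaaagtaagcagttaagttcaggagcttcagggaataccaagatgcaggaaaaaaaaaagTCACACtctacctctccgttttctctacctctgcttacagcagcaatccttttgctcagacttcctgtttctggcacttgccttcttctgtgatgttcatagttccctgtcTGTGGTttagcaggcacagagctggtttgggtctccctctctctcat
Klrk1: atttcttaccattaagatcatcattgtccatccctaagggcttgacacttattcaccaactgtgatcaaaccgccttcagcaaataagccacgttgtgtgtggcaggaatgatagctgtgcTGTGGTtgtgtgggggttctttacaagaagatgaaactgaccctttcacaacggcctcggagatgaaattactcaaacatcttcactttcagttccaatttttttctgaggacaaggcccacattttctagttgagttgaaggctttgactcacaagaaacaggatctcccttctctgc
Ifng: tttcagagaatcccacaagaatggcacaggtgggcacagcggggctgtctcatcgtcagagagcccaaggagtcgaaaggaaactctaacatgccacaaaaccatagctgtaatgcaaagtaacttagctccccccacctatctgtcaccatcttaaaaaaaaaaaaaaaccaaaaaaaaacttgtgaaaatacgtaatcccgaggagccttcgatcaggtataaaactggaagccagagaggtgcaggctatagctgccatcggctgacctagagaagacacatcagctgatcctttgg
Prf1: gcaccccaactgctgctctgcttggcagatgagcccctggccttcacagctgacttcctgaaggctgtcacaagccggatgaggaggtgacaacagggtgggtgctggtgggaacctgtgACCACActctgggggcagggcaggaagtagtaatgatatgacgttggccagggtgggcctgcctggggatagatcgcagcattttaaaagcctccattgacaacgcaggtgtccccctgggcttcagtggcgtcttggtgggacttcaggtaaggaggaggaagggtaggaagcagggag
Gzmb: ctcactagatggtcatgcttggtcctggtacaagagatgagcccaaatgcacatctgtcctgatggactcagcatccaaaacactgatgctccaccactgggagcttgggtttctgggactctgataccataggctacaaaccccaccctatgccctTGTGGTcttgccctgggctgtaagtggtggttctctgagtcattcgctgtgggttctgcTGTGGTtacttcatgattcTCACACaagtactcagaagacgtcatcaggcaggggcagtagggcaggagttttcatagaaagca
The Gzmb window held both motifs and so did that of Il7r, the Slamf7 window held a T-box core alone, and the Klrk1 and Prf1 windows a RUNX core alone. The Ifng window held neither. Over the set, 23 of the 33 genes had a promoter entry, 27 promoters in all. The T-box core was in 25.9% of these against 14.5% of all 32851 promoters of that length, and the RUNX core in 44.4% against 16.8%. The ETS core CAGGAA was in 51.9% against 30.6%, the AP-1 site TGACTCA in 11.1% against 5.20%, and the TATA box TATAAA in 11.1% against 13.6%, both strands searched. None of the 5 motifs contains another, though neighbouring matches may share bases. These are matches of letters in a window and were not tested as sites.

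Among the cytotoxic effectors, granzyme B (Gzmb, gene identifier 14939, probe set 17307033), the serine protease that starts apoptosis in target cells, read 7.64, 9.06 and 7.93 in flox control pools, 9.18, 8.26 and 9.25 in cKO pools, and 9.73 and 10.17 in Cre control pools. Both Cre control pools exceeded every other pool, whereas the cKO pools lay among the flox control pools and above them. The Cre control exceeded the flox control by 1.74 (log2, SE 0.41, 95% interval 0.81 to 2.66, 3.33-fold, limma adjusted p = 0.107), which did not pass. The cKO differed from the flox control by 0.68 (SE 0.37, adjusted p = 0.678) and from the Cre control by -1.05 (SE 0.41, adjusted p = 0.309).

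Granzyme A (Gzma), another granule protease, read 6.69, 8.10 and 7.03 in flox control pools, 8.03, 7.59 and 7.69 in cKO pools, and 8.22 and 8.46 in Cre control pools. Flox control replicate 2 stood above all 3 cKO pools, and the other flox control pools were lowest. The difference between controls was 1.07 (SE 0.34, adjusted p = 0.189). Perforin (Prf1), which opens pores for the granzymes, read 6.91, 7.27 and 7.00 in flox control pools, 7.55, 7.15 and 7.33 in cKO pools, and 7.66 and 7.98 in Cre control pools. Its 3 groups overlapped between flox control and cKO only, with a difference of 0.75 between controls (SE 0.17, adjusted p = 0.101). A further probe set that pairs the symbol Prf1 with COX2 was not used.

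Nkg7, a membrane protein of cytotoxic granules, read 7.30, 7.92 and 7.19 in flox control pools, 8.10, 7.41 and 8.05 in cKO pools, and 8.01 and 8.18 in Cre control pools. The cKO pools overlapped both controls, which differed by 0.62 (SE 0.25, adjusted p = 0.296). Interferon gamma (Ifng), the activator of macrophages, read 5.43, 6.08 and 5.54 in flox control pools, 6.02, 5.48 and 6.38 in cKO pools, and 6.98 and 6.83 in Cre control pools. It was above the dim band in both Cre control pools and within or below it in 3 of the other 6. The controls differed by 1.22 (SE 0.26, adjusted p = 0.0818). Fas ligand (Fasl), which triggers the death receptor Fas, read 5.53, 6.17 and 6.12 in flox control pools, 6.08, 6.13 and 5.87 in cKO pools, and 6.40 and 6.38 in Cre control pools. Both Cre control pools were highest, with a difference between controls of 0.45 (SE 0.19, adjusted p = 0.32).

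Among the NK receptor genes, Slamf7 (gene identifier 75345, probe set 17229782), a receptor of the SLAM family that NK cells and some other leukocytes carry, read 8.26, 8.49 and 7.86 in flox control pools, 8.86, 8.64 and 9.25 in cKO pools, and 9.80 and 9.89 in Cre control pools. The 3 groups did not overlap, with means of 8.20 ± 0.32 (SD, n = 3), 8.92 ± 0.31 (SD, n = 3) and 9.84 ± 0.06 (SD, n = 2) in that order. The Cre control exceeded the flox control by 1.64 (SE 0.22, 95% interval 1.16 to 2.13, adjusted p = 0.0204), which passed the threshold of 0.05 after Benjamini-Hochberg adjustment over all probe sets tested. This call was lost without Cre control replicate 1 (difference 1.69, adjusted p = 0.182), without Cre control replicate 2 (1.60, adjusted p = 0.243) and without the 2 pools of distinct sex-linked transcripts (1.67, adjusted p = 0.088). Over all alternatives tried adjusted p ran from 0.00392 to 0.243. The cKO lay 0.72 above the flox control (SE 0.19, adjusted p = 0.37) and was -0.93 from the Cre control (SE 0.22, adjusted p = 0.153).

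Klrk1, which encodes the activating receptor NKG2D, read 6.09, 6.64 and 5.94 in flox control pools, 6.87, 6.36 and 6.91 in cKO pools, and 7.33 and 7.58 in Cre control pools. Only the cKO and flox control overlapped. The difference between controls was 1.23 (SE 0.23, adjusted p = 0.0559). Il2rb, the beta chain shared by the interleukin 2 and interleukin 15 receptors, read 6.86, 7.57 and 6.95 in flox control pools, 8.01, 7.29 and 7.73 in cKO pools, and 7.99 and 8.20 in Cre control pools. The cKO pools overlapped both controls, which differed by 0.97 (SE 0.25, adjusted p = 0.115).

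Ncr1, the activating receptor NKp46 that marks NK cells, read 5.69, 6.55 and 6.05 in flox control pools, 6.72, 6.16 and 6.39 in cKO pools, and 6.76 and 6.76 in Cre control pools. Its Cre control pools were highest and flox control replicate 1 lay below the dim band. Klrc1, which encodes the receptor chain NKG2A, read 4.74, 5.56 and 5.59 in flox control pools, 5.72, 5.13 and 5.64 in cKO pools, and 5.94 and 5.85 in Cre control pools. Most of these readings were in or below the dim band. Klrd1, the CD94 partner of that chain, read 4.39, 5.02 and 4.48 in flox control pools, 5.56, 4.81 and 5.04 in cKO pools, and 5.34 and 5.22 in Cre control pools, below the band in every array. Differences between controls were 0.67 for Ncr1 (SE 0.24, adjusted p = 0.236) and 0.60 for Klrc1 (SE 0.26, adjusted p = 0.332).

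The T cell receptor complex was read through 3 CD3 chains, which carry the receptor's signalling motifs. Cd3e read 6.35, 5.65 and 5.91 in flox control pools, 6.35, 6.15 and 6.45 in cKO pools, and 7.19 and 6.44 in Cre control pools. Cd3g read 5.67, 5.39 and 4.79 in flox control pools, 5.72, 5.29 and 5.64 in cKO pools, and 6.58 and 5.79 in Cre control pools. Both were highest in Cre control replicate 1, and Cd3g passed the dim band clearly in that pool alone. Cd3d had its highest level in a flox control pool, with 6.48, 5.96 and 5.92 in flox control pools, 5.55, 6.36 and 5.76 in cKO pools, and 5.81 and 5.47 in Cre control pools. The differences between controls were 0.85 for Cd3e (SE 0.25, adjusted p = 0.158), 0.90 for Cd3g (SE 0.29, adjusted p = 0.189) and -0.48 for Cd3d (SE 0.25, adjusted p = 0.422). None passed, and without Cre control replicate 1 those of Cd3e and Cd3g were 0.47 and 0.51.

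**Figure D2:**
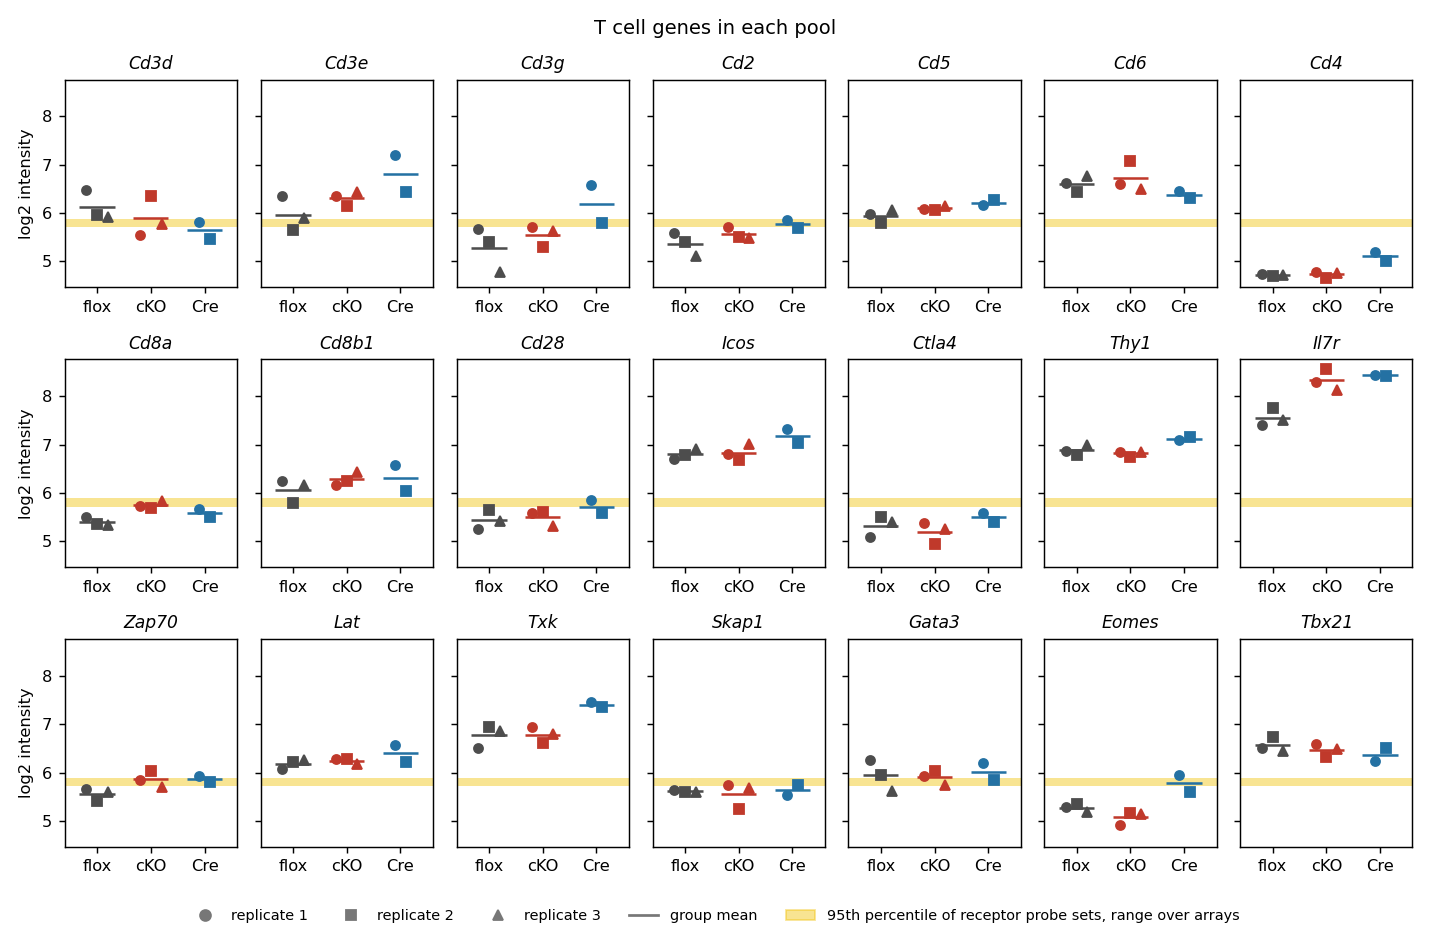
Log2 intensity (vertical axis) of the 21 T cell genes in the same pools, with the symbols, group means and yellow strip of the plot of cytotoxic and NK genes. Il7r lies higher in the 3 cKO and 2 Cre control pools than in the 3 flox control pools, and Cd4 lies below the strip in all 8 pools.

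Among the surface genes, Il7r (gene identifier 16197, probe set 17315891), the alpha chain of the interleukin 7 receptor that resting T cells depend on, read 7.40, 7.75 and 7.50 in flox control pools, 8.29, 8.57 and 8.12 in cKO pools, and 8.44 and 8.42 in Cre control pools. The flox control was lower than both other groups without overlap. The Cre control differed from it by 0.88 (SE 0.16, adjusted p = 0.0532) and the cKO by 0.78 (SE 0.15, 95% interval 0.45 to 1.10, adjusted p = 0.216). The cKO and Cre control overlapped, with a difference of -0.11 (SE 0.16, adjusted p = 0.853).

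The coreceptor Cd4 read 4.74, 4.70 and 4.71 in flox control pools, 4.78, 4.66 and 4.75 in cKO pools, and 5.20 and 5.02 in Cre control pools, below the dim band throughout. The coreceptor Cd8a read 5.51, 5.36 and 5.33 in flox control pools, 5.73, 5.69 and 5.83 in cKO pools, and 5.67 and 5.50 in Cre control pools. Its cKO pools were above all control pools, but in or near the dim band, and the difference from both controls was 0.26 (SE 0.10, adjusted p = 0.469). Thy1, a surface glycoprotein of mouse T cells, read 6.88, 6.79 and 7.00 in flox control pools, 6.85, 6.75 and 6.84 in cKO pools, and 7.09 and 7.16 in Cre control pools. The Cre control pools were highest, by a small step, and the cKO differed from them by -0.31 (SE 0.12, adjusted p = 0.31).

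Icos, a costimulatory receptor, read 6.69, 6.78 and 6.90 in flox control pools, 6.79, 6.67 and 7.01 in cKO pools, and 7.32 and 7.02 in Cre control pools. Cd2, an adhesion receptor, read 5.58, 5.40 and 5.11 in flox control pools, 5.71, 5.50 and 5.49 in cKO pools, and 5.86 and 5.69 in Cre control pools. Cd5, an inhibitor of receptor signalling, read 5.97, 5.80 and 6.06 in flox control pools, 6.09, 6.07 and 6.15 in cKO pools, and 6.16 and 6.26 in Cre control pools. All 3 were highest in a Cre control pool, and Cd2 was above the dim band in no pool. Cd6, Cd8b1, Cd28 and Ctla4 each spanned 0.61 to 0.79 (log2) from lowest to highest pool. None of them had an unadjusted p under 0.05.

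Of the signalling genes, the kinase Txk of the Tec family read 6.51, 6.94 and 6.86 in flox control pools, 6.94, 6.62 and 6.79 in cKO pools, and 7.46 and 7.35 in Cre control pools. The Cre control stood above the rest, the cKO differing from it by -0.62 (SE 0.16, adjusted p = 0.179). Zap70, the kinase that binds the phosphorylated CD3 chains, read 5.65, 5.41 and 5.60 in flox control pools, 5.84, 6.03 and 5.70 in cKO pools, and 5.92 and 5.80 in Cre control pools. These values lay in and around the dim band. The adaptors Lat and Skap1 spanned 0.51 each from lowest to highest pool, without an unadjusted p under 0.05.

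Of the transcription factors, Eomes, a T-box factor of NK and memory CD8 cells, read 5.29, 5.35 and 5.19 in flox control pools, 4.91, 5.16 and 5.13 in cKO pools, and 5.95 and 5.60 in Cre control pools. It was lowest in the cKO and mostly below the dim band. Only the Cre control pools read above the median of all values (5.45). Eomes thus entered the tests through the group where it was highest, which limits the differences given here. The cKO differed from both controls by -0.46 (SE 0.12, adjusted p = 0.341) and from the Cre control by -0.71 (SE 0.15, adjusted p = 0.122). Tbx21, which encodes T-bet, read 6.51, 6.74 and 6.45 in flox control pools, 6.58, 6.32 and 6.48 in cKO pools, and 6.23 and 6.51 in Cre control pools. Its groups overlapped, and the controls differed by -0.20 (SE 0.15, adjusted p = 0.589), opposite in sign to the cytotoxic genes. Gata3, the factor of type 2 helper T cells, spanned 0.66 and had a second probe set with 5.50 to 6.21.

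The control lines were compared to see how far lines without the knockout differ. Of the 31 genes tested, 28 read higher in the Cre control and 3 lower (Cd3d, Cd6 and Tbx21), with a median difference of 0.45 against -0.00 over all probe sets tested. Slamf7 was the 1 gene called, when 0.486% of all probe sets were called. At an unadjusted p under 0.05, 18 were higher and 0 lower, against 6.85% of all probe sets higher. With no filter on dim probe sets 20 of 33 were higher at that level, against 5.77% of all probe sets. With a value above the median needed in at least 3 arrays, 17 of 29 were, against 6.83%. That filter leaves out Eomes, which entered the tests through the 2 Cre control pools alone. All 11 cytotoxic and NK genes tested were among the 18, with a median of 0.97, and 7 of the 20 T cell genes, with a median of 0.26. Among the 18, Cd2 lay above the dim band in 0 arrays, Eomes in 1, and Cd3g and Klrc1 in 3 each. Arrays did not overlap, Cre control higher, for 21 of the 31, against 15.3% of all probe sets. The count of 18 was 14 without the 2 pools of distinct sex-linked transcripts, all higher, against 6.39% of all probe sets higher. Without Cre control replicate 1 the median was 0.33, with 1.07 over the cytotoxic and NK genes and 0.19 over the T cell genes. The count at an unadjusted p under 0.05 was also lower in that fit, which leaves 1 Cre control pool. The count of called genes moved with single pools. It was 0 if either Cre control pool was left out, and 0 without the 2 pools of distinct sex-linked transcripts. Leaving out flox control replicate 2 or cKO replicate 3 gave 2, and leaving out cKO replicate 2 gave 5. Of all 14002 probe sets 18, 92 and 235 were called in these 3 fits in that order, against 68 with all pools.

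**Figure D3:**
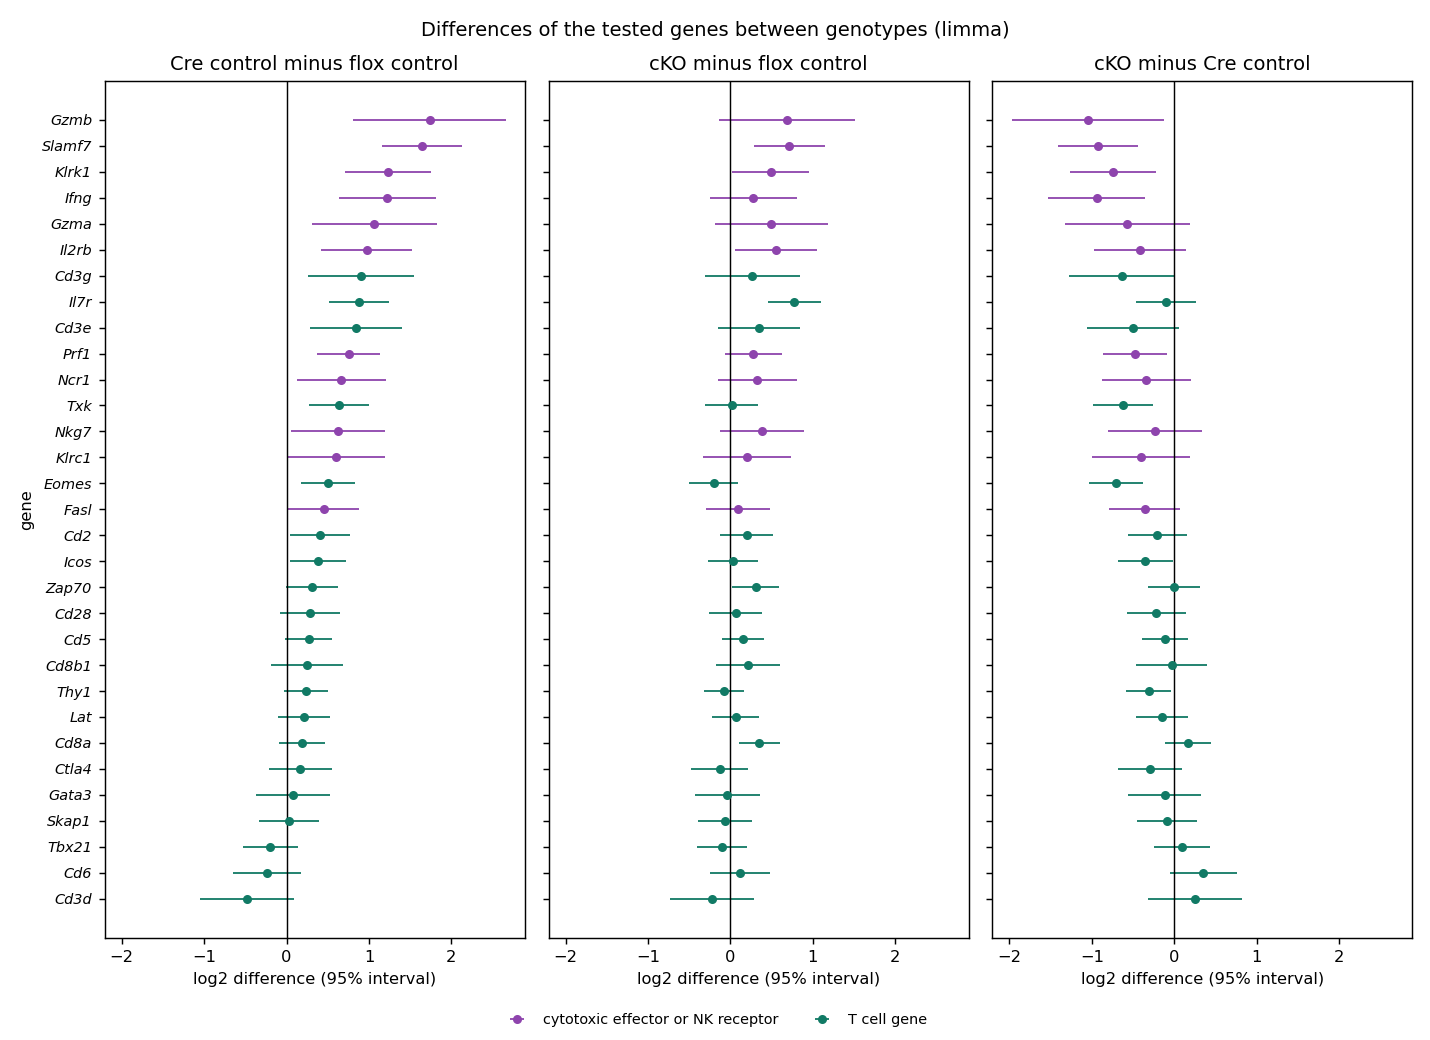
Log2 difference with its 95% interval (horizontal axis) for each of the 31 tested genes in 3 comparisons, purple for cytotoxic effector and NK receptor genes and green for T cell genes, ordered by the difference between the controls. All purple points lie above 0 in the left and middle panels and below 0 in the right panel; the 3 panels share arrays, so their points are not independent.

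The cKO was compared with the flox control, which shares its floxed allele but lacks Cre. Of the 31 genes, 24 read higher in the cKO and 7 lower, with a median of 0.20 against 0.01 over all probe sets. None was called, when 0.0429% of all probe sets were. The unadjusted p was under 0.05 for 6, all higher, against 4.28% of all probe sets higher. These were Il7r, Slamf7 (0.72), Il2rb (0.55), Klrk1 (0.49), Cd8a (0.35) and Zap70 (0.31). Arrays did not overlap for 6 of 31, against 12.2% of all probe sets: Cd5, Cd8a, Il7r, Zap70 and Slamf7 were higher and Eomes lower. The 11 cytotoxic and NK genes all read higher, with a median of 0.39, and the T cell genes in 13 of 20, with a median of 0.06. The median of the cytotoxic and NK genes was 0.21, with 9 of 11 higher, without flox control replicate 1. It was 0.61 if flox control replicate 2 was left out and 0.59 if cKO replicate 2 was. The count at an unadjusted p under 0.05 was 10 in each of these last settings. Without flox control replicate 2 all 10 were higher, against 4.90% of all probe sets higher. Without cKO replicate 2, 9 were higher and 1 lower, against 3.46% and 3.05%. The count was 3, all higher, without flox control replicate 3 (4.48% of all probe sets higher) and, in another fit, without cKO replicate 1 (2.44%). Without the 2 pools of distinct sex-linked transcripts the median of the cytotoxic and NK genes was 0.12, with 8 of 11 higher. That of the T cell genes was then 0.12 and that of all 31 was 0.12. In that setting 3 genes had an unadjusted p under 0.05, all higher, against 2.36% of all probe sets higher. With no filter on dim probe sets 7 of 33 genes had an unadjusted p under 0.05, all higher, against 3.45% of all probe sets higher.

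The cKO was compared with the Cre control, which shares its Cre but lacks the floxed allele. Of the 31 genes, 27 read lower in the cKO and 4 higher, with a median of -0.31. None was called, when 0.0714% of all probe sets were. An unadjusted p under 0.05 was found for 9, all lower, against 5.96% of all probe sets lower: Eomes, Slamf7, Txk, Ifng, Klrk1, Prf1, Gzmb, Thy1 and Icos. Eomes entered the tests through the Cre control pools alone, the group where it was highest. With a value above the median needed in at least 3 arrays, 8 of 29 genes were lower at that level, against 5.92% of all probe sets. Arrays did not overlap, cKO lower, for 16 of 31, against 16.0% of all probe sets. With no filter on dim probe sets 11 of 33 had an unadjusted p under 0.05, all lower, against 5.08% of all probe sets lower. All 11 cytotoxic and NK genes tested were lower, with a median of -0.47, and 16 of 20 T cell genes, with a median of -0.13. The count at an unadjusted p under 0.05 was 5 without cKO replicate 2, all lower, against 3.94% of all probe sets lower. Without Cre control replicate 1 the median over all 31 was -0.21, and without Cre control replicate 2 that of the T cell genes was -0.29.

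Against the mean of both controls no gene of the set passed for the cKO. Of the 31 genes, 9 read higher and 22 lower, with a median of -0.08 against 0.01 over all probe sets. None was called, when 0.00714% of all probe sets were. An unadjusted p under 0.05 was found for 4, against 9.52% of all probe sets: Il7r (0.34) and Cd8a (0.26) higher, Eomes (-0.46) and Txk (-0.30) lower. Eomes had entered the tests through the Cre control pools alone. Arrays did not overlap for Cd8a, higher, and Eomes, lower, which is 2 of 31 against 4.36% of all probe sets. The count of 4 became 2 when flox control replicate 2 or either of cKO replicates 1 and 2 was left out. Without flox control replicate 2, 1 was higher and 1 lower, against 5.03% and 3.69% of all probe sets. Without cKO replicate 1 both were lower, against 2.98%. Without cKO replicate 2, 1 was higher and 1 lower, against 2.80% and 2.54%. With the 2 pools of distinct sex-linked transcripts left out, 1 was higher and 3 lower, against 3.67% and 3.54%. The cytotoxic and NK genes were centred near 0, with -0.18 for Gzmb (95% interval -0.93 to 0.56) and -0.11 for Slamf7 (-0.50 to 0.28). Their median was -0.10 with 2 of 11 higher, and without cKO replicate 2 it was 0.05 with 9 of 11 higher. Without cKO replicate 1 it was -0.17 with 0 of 11 higher, and without the 2 pools of distinct sex-linked transcripts -0.25 with 0 of 11 higher, the median over all 31 then being -0.17. The 4 comparisons share arrays, so the signs of one follow in part from those of another.

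Seen pool by pool, the 12 cytotoxic and NK genes deviated from their 8-array means by a median of -0.65, 0.04 and -0.57 in flox control pools, 0.23, -0.26 and 0.14 in cKO pools, and 0.42 and 0.62 in Cre control pools. Flox control replicate 2 lay above the other pools of its group, and cKO replicate 2 below those of its own. The 21 T cell genes deviated by -0.04, -0.12 and -0.08 in flox control pools, 0.02, -0.04 and -0.06 in cKO pools, and 0.31 and 0.12 in Cre control pools. Flox control replicate 1 was the lowest pool for 13 of 33 genes, and Cre control replicates 1 and 2 were the highest for 15 and 10. Among the 16 genes above the dim band in every array, flox control replicate 1 was lowest for 7. Cre control replicates 1 and 2 were highest for 4 and 9 of these 16. In bulk RNA, fewer cells of a type and less RNA per cell cannot be told apart.

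**Figure D4:**
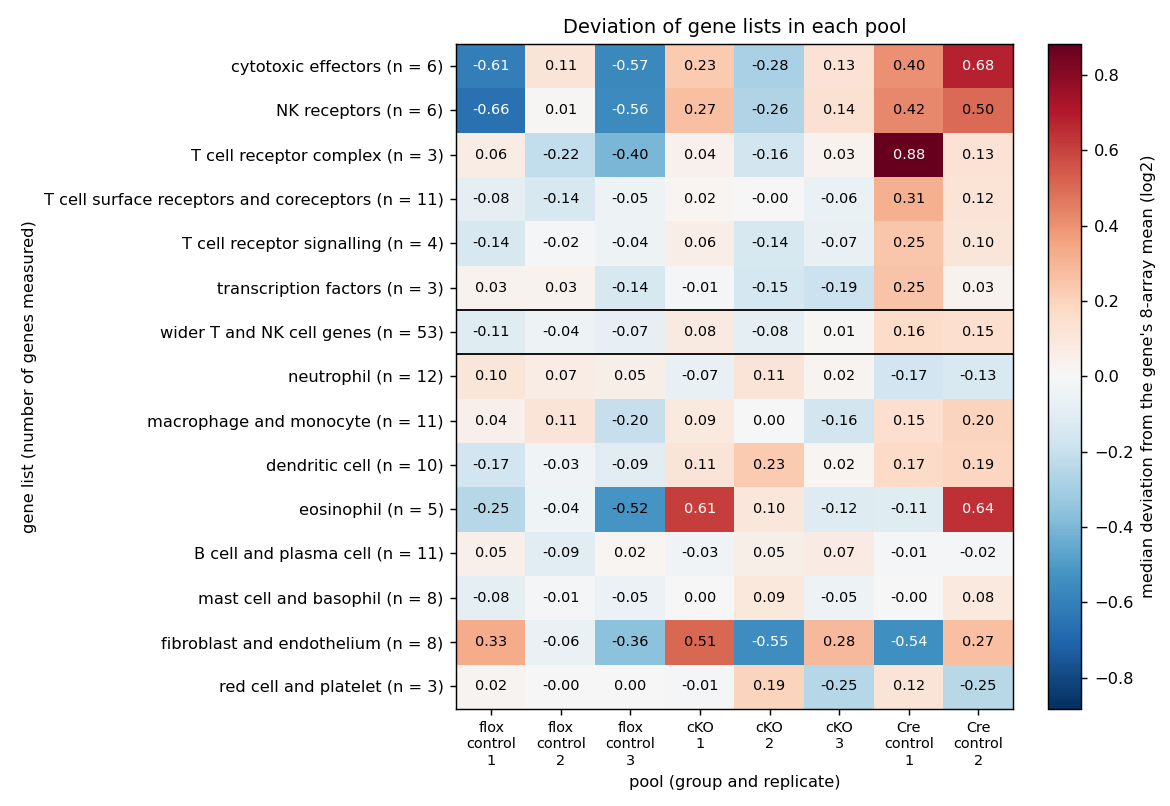
Median over the genes of each list of the deviation from the gene's 8-array mean (log2, colour and number), for the roles of the set above the first line, the wider T and NK list between the lines and other cell type lists under it, in each of the 8 pools. Cytotoxic effectors run from -0.61 in flox control replicate 1 to 0.68 in Cre control replicate 2, while the neutrophil list lies between -0.17 and 0.11.

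Markers of other cells were read between the control lines in the same way, and none of the lists named here had a gene called. Of 12 neutrophil markers 11 read lower in the Cre control, with a median of -0.24, and 5 had an unadjusted p under 0.05, all lower, against 7.86% of all probe sets lower. Macrophage markers read higher in 8 of 10 (median 0.24), dendritic cell markers in 7 of 9 (0.43) and eosinophil markers in 4 of 4 (0.46). The 2 Cre control pools differed for the 5 eosinophil markers measured, with median deviations of -0.11 in replicate 1 and 0.64 in replicate 2. These were -0.25, -0.04 and -0.52 in the flox control pools. An unadjusted p under 0.05 was found for 2 macrophage markers, both higher, for 5 dendritic cell markers, 4 higher and 1 lower, and for 0 eosinophil and 0 B cell markers by limma. At that level 6.85% of all probe sets were higher and 7.86% lower. B cell markers read higher in 1 of 5 (-0.04) and 0 of 11 measured lay above the dim band in all arrays. Of the dendritic cell markers measured 6 of 10 did, of the macrophage markers 9 of 11 and of the eosinophil markers 2 of 5. The dendritic cell markers Xcr1, Zbtb46 and Itgae were tested but lay above the band in 0 arrays. Mean levels over the neutrophil list ran from 11.99 to 12.18 in the flox control, 11.86 to 12.06 in the cKO and 11.76 to 11.77 in the Cre control. Mean levels over the 12 cytotoxic and NK genes ran from 6.29 to 7.04, 6.70 to 7.22 and 7.51 to 7.62 in the same order. The part of other cells in the differences above was not tested.

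A wider list of 62 further T and NK cell genes had 53 measured and 38 tested. Ccr7 was on this list and on the dendritic cell list above, read by the same probe set. Between the controls 28 read higher and 10 lower in the Cre control, with 0 called and a median of 0.30. At an unadjusted p under 0.05, 16 were higher and 1 lower, against 6.85% and 7.86% of all probe sets. The smallest p was that of Il2ra, the alpha chain of the interleukin 2 receptor, with a difference of 1.39 (SE 0.25, adjusted p = 0.0506). It read 8.48, 8.94 and 8.68 in flox control pools, 9.74, 8.77 and 9.28 in cKO pools, and 10.14 and 10.05 in Cre control pools, the last highest without overlap. Next were the adaptor Sh2d2a (0.86), the kinase Prkcq (0.87) and the interleukin 12 receptor chain Il12rb2 (1.20). Against the flox control the cKO read higher for 28 and lower for 10, 6 and 1 of them at an unadjusted p under 0.05 (4.28% and 3.98% of all probe sets), led by Sh2d2a (0.50), the chemokine receptor Ccr7 (0.73), the chemokine Xcl1 (0.68) and the factor Ikzf3 (0.74). Against the Cre control it read higher for 7 and lower for 31, 1 and 8 of them at that level (7.51% and 5.96% of all probe sets), led by Cd69 (-1.09), an early activation marker, Prkcq (-0.72), Il2ra (-0.83) and Lag3 (-0.42), an inhibitory receptor. Against both controls the counts were 19 and 19, with Cd69 alone at that level, which 9.52% of all probe sets reached (-0.80, SE 0.24, adjusted p = 0.369). Cd69 read 12.14, 11.60 and 11.73 in flox control pools, 10.90, 11.07 and 11.98 in cKO pools, and 12.55 and 12.26 in Cre control pools. Which cells carried its transcript was not tested.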

How the data were processed

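Messenger RNA was measured on 8 arrays of pooled air pouch neutrophils. The deposited values are log2 intensities that the authors made with RMA in Affymetrix Expression Console, per the series' design text; the sources used here name neither its version nor the genome build. The labels disagree on the RNA and labelling kits. Promoter sequences are from RefSeq (GRCm38.p6), matched by symbol. Groups came from titles and genotype labels, since the source field names other genotypes. Of 34472 probe sets, 23521 carried 1 symbol, 1814 several and 9137 none. The 14002 with 1 symbol and a value above the median (5.45) in at least 2 arrays were tested in 1 fit of 3 group means with limma 3.58.1 (R 4.3.3; 5 residual and 4.69 prior degrees of freedom), two-sided, with Benjamini-Hochberg adjustment over them and a threshold of 0.05. The number of arrays limits the precision. The fit was tested on simulated data. Every gene of the set is accounted for, and values in each array are given for defining markers and for genes with an unadjusted p under 0.05 or without overlap between the cKO and the flox control or all controls. Of the wider list up to 4 genes a comparison were named, by smallest p. Members and lists were chosen with earlier results of these data known. Alternatives were other filters, scalings, variance models, array weights, smaller fits, another probe set rule and leaving out pools.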

Additional observations from a re-analysis of the deposited data

How the results depend on the processing

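No paired analysis was possible because the replicate numbers were given in accession order and pair no pools. Over 18 alternatives in each comparison, the count of genes called stayed at 0 when the cKO was set against both controls or the flox control. With the Cre control as reference it was 0 except with array weights, where it was 1. This was Eomes, which entered the tests through the Cre control pools alone, the group where it was highest. With array weights 145 of all probe sets were called, against 10 with the settings reported. Between the controls the count, 1 with the settings reported, was 2 with quantile scaling, 7 with array weights and 3 with only the groups compared. Of all probe sets 68 were called with the settings reported, and 79, 819 and 131 in these alternatives. The count for the set was 0 without the 2 pools of distinct sex-linked transcripts, when 24 of all probe sets were called. It was 5 without cKO replicate 2, when 235 of all were. Leaving out a Cre control pool leaves 1 array in that group, whose spread is then taken from the other groups. The median difference of the set between controls ran from 0.33 (without Cre control replicate 1) to 0.54 on leaving out pools. It ran from 0.12 to 0.23 for the cKO minus the flox control over all alternatives, from -0.36 to -0.21 minus the Cre control and from -0.17 to 0.03 against both. The causes were not tested. Genes in or below the dim band have no reliable order, and 3 and 2 pools a group limit every difference.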
